A study of Rattus norvegicus with 48 samples.

Results

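The transporters of the ATP-binding cassette (ABC) family, the organic anion transporting polypeptides (OATP, symbols beginning Slco) and the organic ion carriers of the SLC22 family were followed in rat liver and brain cortex after a single oral dose of the nitramine explosive RDX. Members were all probe sets whose single gene symbol in the platform annotation begins Abc followed by a letter from a to g and a digit, Slco followed by a digit, or Slc22a. The rule found 66 genes of 14217 named genes on the array: 37 ABC, 13 OATP and 16 SLC22 genes. They were measured by 89 of the 31042 probe sets tested, and the probe set with the highest mean in a tissue stood for its gene. Within this rule no measured value picked a gene, but the families were chosen with earlier results of these data known. Abcb1b was not analysed here.

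Male Sprague-Dawley rats received pure RDX in a gel capsule at 18 or 3 mg/kg, doses chosen not to cause seizures. Liver and cortex were collected at 0, 4, 24 and 48 h, and RNA of each of the 16 combinations of tissue, dose and time was hybridised to 3 Affymetrix rat genome arrays, 48 in all. All animals, including those of the 0 h groups, carry a dose label, and no vehicle group enters the comparisons, so each later group was set against the 0 h group of the same tissue and dose. Separate animals for the arrays within a group are not stated in the labels, and p-values measure only how far these arrays spread. Values are log2 intensities, on which 1 unit is a doubling. In bulk tissue, fewer cells of a type and less RNA per cell cannot be told apart.

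ABC proteins use ATP to move bile salts, lipids, drugs and conjugates out of cells or into organelles, whereas OATP and SLC22 carriers mostly bring organic anions, cations and carnitine into cells. In the liver, uptake carriers sit on the sinusoidal membrane that faces the blood, and efflux pumps sit on the canalicular membrane that faces bile. In the brain, related carriers and pumps of capillary endothelium and choroid plexus limit the entry of drugs and supply thyroid hormone.

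The 24 liver arrays had medians of 6.07 to 6.50 and standard deviations over probe sets of 1.38 to 2.08, and the 24 cortex arrays had medians of 6.21 to 6.31 and standard deviations of 2.07 to 2.17. Liver arrays with compressed values were 18 mg/kg 4 h replicate 1 (1.38) and 3 mg/kg 0 h replicate 2 (1.49). The next lowest standard deviation in liver was that of 3 mg/kg 0 h replicate 1 (1.82). The mean of 12 hepatocyte marker genes was 10.6 to 13.2 in liver and 4.90 to 10.5 in cortex, where its median was 5.28 and 4 arrays exceeded 8. The gap between the 3′ and 5′ beta-actin control probe sets, which widens as RNA degrades, was 0.617 to 4.38 in liver and 1.65 to 4.61 in cortex. Neuron markers averaged 4.71 to 5.72 in liver and 10.1 to 10.8 in cortex. In cortex, brain endothelium markers averaged 7.85 to 8.26 and choroid plexus markers 5.81 to 7.15.

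Promoter sequence was taken from RefSeq, build GRCr8, for 56 of the 66 genes, as the 250 bases before and 50 bases after the start. The letters GTTAAT, which are part of the site of the liver factor HNF1, were searched on both strands, and so were AGGTCA, a nuclear receptor motif, and CAAAGTCCA, the HNF4 core. GTTAAT was in 7.37% of 27457 rat promoters and in 6 of the 56 member promoters (10.7%), AGGTCA was in 15.7% and in 10 members (17.9%), and CAAAGTCCA was in 0.375% and in 2 members, Abcb4 and Abcd3. Of the 8 members with a promoter that were at least 3 log2 units higher in liver, 3 held GTTAAT (Slco1b2, Abcc2 and Slc22a8) and 5 did not (Abcc6, Slc22a7, Slc22a18, Slco1a1 and Slco2a1). The other members with GTTAAT were Slc22a25, which was higher in liver, and Abce1 and Slc22a24, which did not pass between the tissues. The promoters of 4 genes are shown, the 3 liver genes that hold this motif and, for contrast, Slc22a17, which was higher in cortex. They are therefore no sample of the liver genes. Capitals mark matches, 5′ to 3′ on the strand of the gene.
Slco1b2, chr4:176282334-176282633, plus strand: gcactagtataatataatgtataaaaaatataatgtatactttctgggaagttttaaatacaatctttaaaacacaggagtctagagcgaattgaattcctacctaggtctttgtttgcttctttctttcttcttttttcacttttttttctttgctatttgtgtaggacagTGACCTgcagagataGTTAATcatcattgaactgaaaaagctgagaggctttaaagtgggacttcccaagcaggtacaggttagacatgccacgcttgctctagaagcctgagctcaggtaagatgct
Abcc2, chr1:252613625-252613924, plus strand: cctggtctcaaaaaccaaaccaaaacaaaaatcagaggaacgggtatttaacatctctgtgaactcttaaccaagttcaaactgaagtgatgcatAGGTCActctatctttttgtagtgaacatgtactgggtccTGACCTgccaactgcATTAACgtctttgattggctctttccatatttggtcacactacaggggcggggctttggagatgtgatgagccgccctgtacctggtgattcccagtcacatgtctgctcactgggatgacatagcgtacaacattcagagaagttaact
Slc22a8, chr1:214927034-214927333, plus strand: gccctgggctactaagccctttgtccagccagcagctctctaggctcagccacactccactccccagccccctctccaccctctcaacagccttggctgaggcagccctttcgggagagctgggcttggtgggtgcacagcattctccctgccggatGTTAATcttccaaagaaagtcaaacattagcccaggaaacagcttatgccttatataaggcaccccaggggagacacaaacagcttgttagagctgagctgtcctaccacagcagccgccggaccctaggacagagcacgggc
Slc22a17, chr15:32358731-32359030, minus strand: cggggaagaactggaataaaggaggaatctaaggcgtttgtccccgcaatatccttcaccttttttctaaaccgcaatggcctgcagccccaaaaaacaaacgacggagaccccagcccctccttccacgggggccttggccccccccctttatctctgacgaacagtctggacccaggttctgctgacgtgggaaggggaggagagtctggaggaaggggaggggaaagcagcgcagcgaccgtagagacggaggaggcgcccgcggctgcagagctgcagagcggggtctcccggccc
In Slco1b2 the GTTAAT match began 63 bases before the start, beside AGGTCA on the reverse strand, written TGACCT, 78 bases before it. Abcc2 had GTTAAT on the reverse strand, written ATTAAC, 100 bases before its start, and AGGTCA at 155 bases and, reversed, at 115 bases. Slc22a8 had GTTAAT 93 bases before its start, and none of the 3 motifs was in this window of Slc22a17. A match describes letters in the window and no binding was measured.

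The first comparison set liver against cortex at 0 h, with 6 arrays of each tissue. Of the 66 genes, 36 were higher and 19 lower in liver, and 11 did not pass the threshold of an adjusted p below 0.05. Over all probe sets 77.4% passed, 46.5% higher and 30.8% lower, so passing was common for any gene. The median difference between liver and cortex was 0.57 over the members and 0.26 over all probe sets. Liver was higher for 18 of 37 ABC, 8 of 13 OATP and 10 of 16 SLC22 genes, and lower for 13, 2 and 4 of them.

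Sinusoidal uptake carriers were mostly higher in liver. Of the 9 measured members of that list 8 were higher, with a median difference of 3.09, and Slco1a5 did not pass. Slco1b2, the liver carrier of bilirubin conjugates, bile acids and many drugs, read 11.81, 11.67 and 11.78 in the 18 mg/kg and 11.45, 11.26 and 11.84 in the 3 mg/kg liver arrays, against 4.48, 4.40 and 5.01 and 4.45, 4.18 and 4.35 in the matching cortex arrays. No liver array overlapped a cortex array, and the difference was 7.16 ± 0.38 (SE, n = 6 each, limma adjusted p = 1.4e-19). Slc22a7, an organic anion carrier, averaged 11.82 ± 0.29 in liver and 5.23 ± 0.11 in cortex (SD, n = 6 each). Slco1a1, a bile acid and steroid conjugate carrier, averaged 9.72 ± 1.12 in liver and 3.98 ± 0.11 in cortex. The prostaglandin carrier Slco2a1 was higher in liver by 5.92 ± 0.22 (SE), and Slc22a8, an anion carrier also found in choroid plexus and brain capillaries, by 3.09 ± 0.29. Slco1a4, which carries digoxin and is also a blood-brain barrier carrier, averaged 11.61 ± 0.13 in liver and 9.91 ± 0.13 in cortex, a narrower difference of 1.71 ± 0.16. The other Slco1a4 probe set overlapped between the tissues at 0 h, at 6.44 to 9.61 in liver and 7.35 to 8.35 in cortex. Carnitine carrier Slc22a5 averaged 8.31 ± 0.37 in liver and 6.99 ± 0.09 in cortex.

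Canalicular efflux pumps were higher in liver in 6 of 7 cases, with a median difference of 2.54. The bile salt export pump Abcb11 averaged 10.53 ± 1.33 in liver and 4.26 ± 0.12 in cortex (SD, n = 6 each), and Abcc2, which exports bilirubin and glutathione conjugates, averaged 10.54 ± 1.31 and 5.17 ± 0.17. Abcg2, a pump for drugs and urate, was higher in liver by 2.56 ± 0.22 (SE), the sterol exporter Abcg5 by 2.54 ± 0.28 and the phosphatidylcholine translocator Abcb4 by 2.26 ± 0.23. Abcb1a, the P-glycoprotein pump of canaliculus and brain capillary, did not pass, at 6.73 ± 0.58 in liver and 7.20 ± 0.53 in cortex (−0.47 ± 0.24, SE, adjusted p = 0.0778). This holds for the probe set that stood for the gene. On the other Abcb1a probe set every liver array at 0 h (5.93 to 6.38) lay below every cortex array (6.75 to 7.01).

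Among 6 basolateral exporters, 3 were higher and 2 lower in liver. Abcc6, known for ATP release from hepatocytes, averaged 11.43 ± 0.26 in liver and 5.82 ± 0.12 in cortex, and Abcc3, which returns conjugates to blood, was higher by 0.90. Abca1, which loads cholesterol onto apolipoprotein A-I, was higher in liver by 1.52. Abcc5, an exporter of cyclic nucleotides, was lower in liver by −2.55 and the glutathione conjugate pump Abcc1 by −1.38, while Abcc4 did not pass at 0.28. The other Abcc5 probe set overlapped between the tissues at 0 h, at 5.33 to 6.10 in liver and 5.63 to 7.18 in cortex.

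The blood-brain barrier and choroid plexus list was mixed: 4 of its 10 members were higher in liver, 3 lower and 3 did not pass, with a median of −0.10. Slco1c1, the thyroxine carrier of brain capillaries, read 4.86, 5.06 and 4.89 in the 18 mg/kg and 4.63, 6.14 and 4.80 in the 3 mg/kg liver arrays, against 9.83, 9.88 and 9.79 and 9.95, 9.74 and 9.96 in the cortex arrays. Every cortex array lay above every liver array, also over all times, where liver reached 6.44 and cortex began at 9.33. The difference was −4.80 ± 0.24 (SE, adjusted p = 1.63e-20). Slc22a17, a receptor for lipocalin 2, averaged 8.21 ± 0.68 in liver and 12.29 ± 0.10 in cortex. In the lipid list, 5 of 9 genes were lower in liver, among them Abcg1 (−1.52) and the myelin lipid transporter Abca2 (−1.69). The peroxisomal fatty acid transporter Abcd2 was lower by −3.64 ± 0.18 and the sterol exporter Abcg4 by −2.78.

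**Figure D1:**
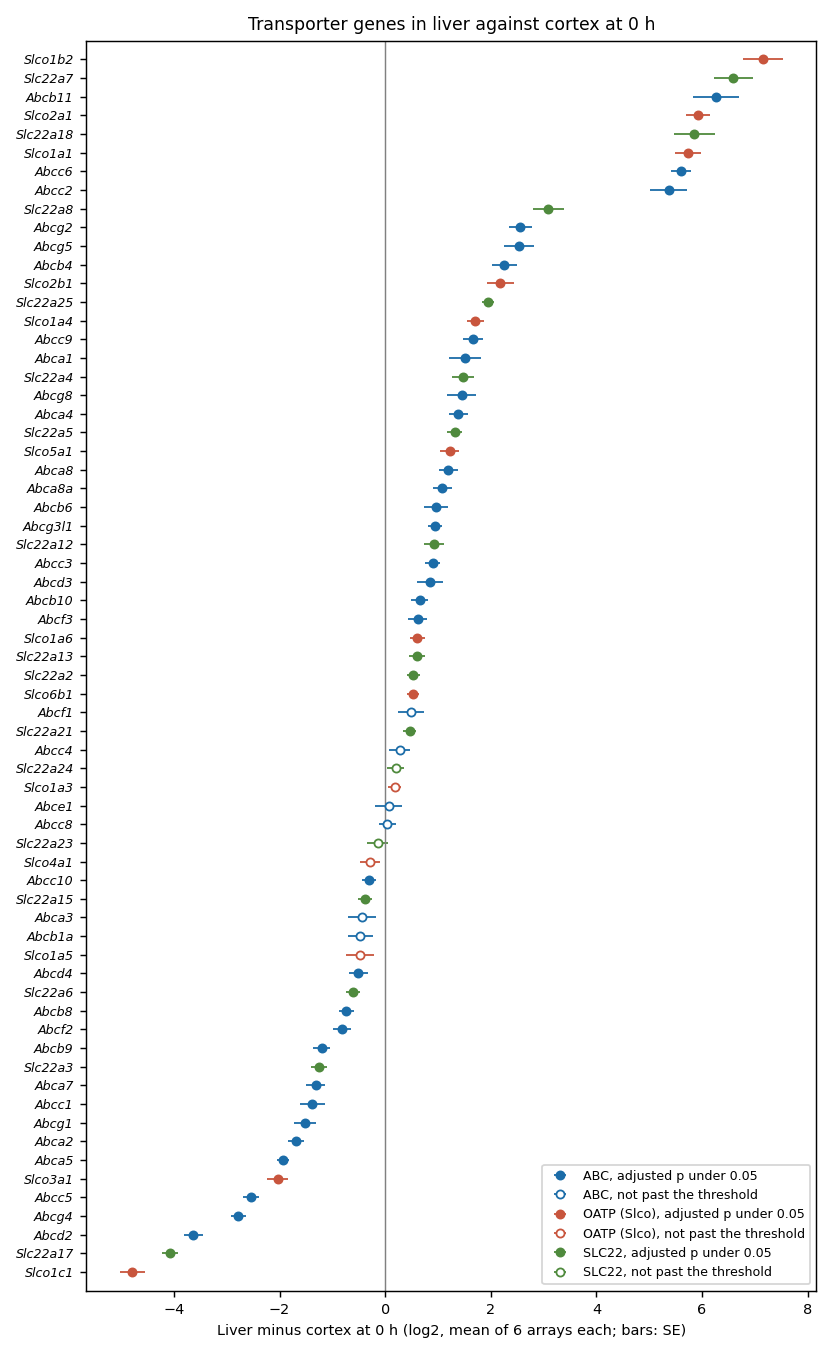
Difference between liver and cortex at 0 h for each of the 66 genes, in log2 units (liver minus cortex, mean of 6 arrays each, bars are the SE). Filled points passed an adjusted p of 0.05, and the genes run from Slco1b2 at the top (7.16) to Slco1c1 at the bottom (−4.80).

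The time courses were narrow by comparison. Over the 8 dose and time groups of a tissue, the means of a gene spanned 0.193 to 2.07 in liver (median 0.71) and 0.099 to 2.07 in cortex (median 0.453), against a median SD within groups of 0.374 in liver and 0.194 in cortex. In liver, 23 of the 66 genes had their lowest group mean in the 3 mg/kg 0 h group and 17 in the 18 mg/kg 4 h group, the 2 groups that hold a compressed array. Other members, such as Slc22a12, Slc22a6 and Abcc1, had their highest group mean in the 18 mg/kg 4 h group. The shares over all probe sets are not given, so these counts show nothing particular to the transporters. The part of the compressed arrays was not tested.

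**Figure D2:**
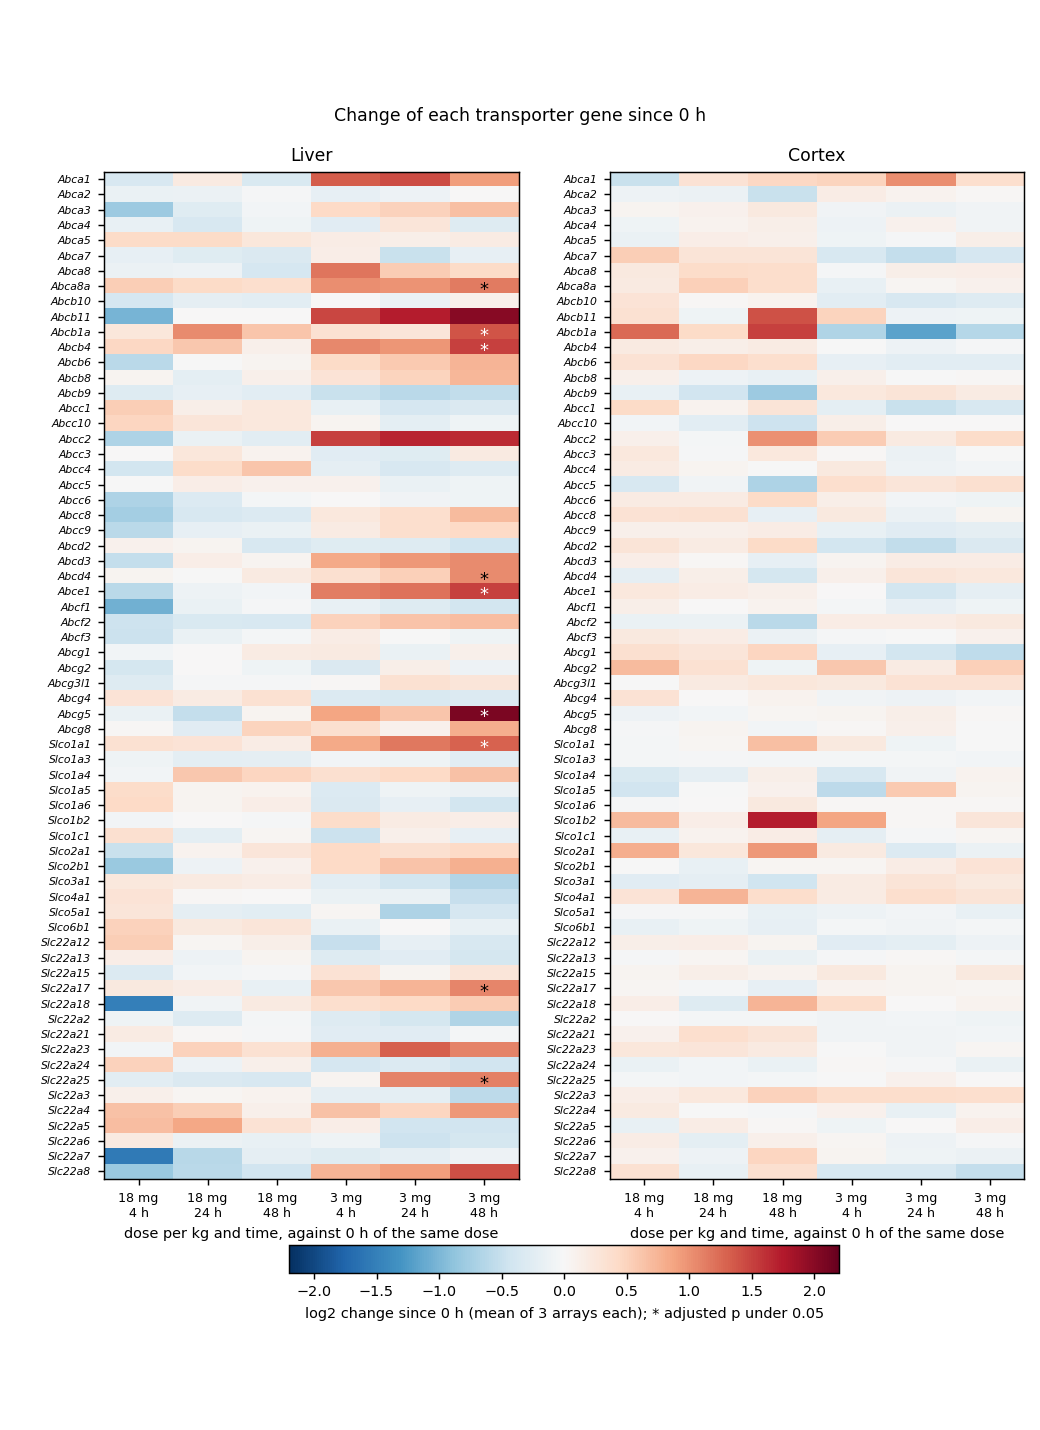
Log2 change of each of the 66 genes from 0 h of the same dose, in liver and cortex, after 18 and 3 mg/kg at 4, 24 and 48 h (means of 3 arrays each); asterisks mark an adjusted p under 0.05. Asterisks appear for 9 genes, all in liver 48 h after 3 mg/kg, and the most intense change is Abcg5 there (2.07).

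In liver 48 h after 3 mg/kg, 9 of the 66 genes rose and none fell. They were the canalicular exporters Abcg5, Abcb4 and Abcb1a, the uptake carrier Slco1a1, and Slc22a25, Slc22a17, Abca8a, Abcd4 and Abce1. This is 13.6% of the members, beside 9.34% of all probe sets (6% higher, 3.33% lower), and the median change was 0.14 over members and −0.16 over all probe sets. Arrays did not overlap for 25 members (37.9%), beside 36.3% of all probe sets, and 23 members had an unadjusted p under 0.05, beside 32% of all.

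Canalicular exporters supplied 3 of the 9, of 7 measured, with a list median of 1.50. Abcg5, which exports sterols into bile together with Abcg8, read 8.34, 8.58 and 8.59 at 48 h, against 6.41, 5.81 and 7.07 at 0 h. The 48 h arrays lay above all 0 h arrays, and the change was 2.07 ± 0.52 (SE), 4.21-fold, with a limma adjusted p of 0.0272. Abcb1a read 7.94, 7.67 and 7.95 at 48 h, against 6.62, 5.82 and 6.99 at 0 h, a change of 1.38 ± 0.29 (adjusted p = 0.0235). Abcb4 read 9.31, 8.90 and 9.32 at 48 h, against 7.91, 6.38 and 8.74 at 0 h, and changed by 1.50 ± 0.42 (adjusted p = 0.0348). Its groups did not overlap, although the 0 h arrays ranged over more than the change itself. Abcb11 and Abcc2 had larger changes than Abcb4, of 2.0 ± 0.66 and 1.64 ± 0.58, but missed the threshold at adjusted p = 0.0573 and 0.0677. Without the compressed 0 h array, replicate 2, the changes were 0.85 for Abcb4, 1.16 for Abcb11 and 0.92 for Abcc2. Abcg8, the partner of Abcg5, was at 0.80 (adjusted p = 0.271) and Abcg2 at −0.11.

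Of the 9 uptake carriers only Slco1a1 passed. It read 10.44, 10.34 and 10.68 at 48 h, against 10.20, 7.50 and 9.84 at 0 h, a change of 1.30 ± 0.41 (adjusted p = 0.0496). Without the compressed 0 h array, which read 7.50, the Slco1a1 change was 0.46. Slc22a8 was at 1.42 ± 0.52 (adjusted p = 0.078), Slco2b1 at 0.78 and Slco1b2 at 0.15. Slc22a25, of the SLC22 family, read 6.78, 5.92 and 6.57 at 48 h, against 5.15, 5.44 and 5.35 at 0 h (1.11 ± 0.22, adjusted p = 0.0231), with no overlap. It had already read 6.55, 6.61 and 6.06 at 24 h (1.09, adjusted p = 0.078). Its signal was low, outside the brighter probe sets of the alternatives, and its 18 mg/kg arrays at 0 h read 5.88, 6.16 and 6.33.

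The remaining members that rose were the ribosome recycling factor Abce1 (1.51 ± 0.46, adjusted p = 0.0445), the lysosomal cobalamin exporter Abcd4 (1.05 ± 0.31, 0.041), Abca8a (1.14 ± 0.30, 0.0294) and Slc22a17 (1.08 ± 0.29, 0.0302), whose arrays overlapped. Just outside the threshold was the mitochondrial Abcb8 (0.73, adjusted p = 0.0509). None of 6 basolateral exporters passed (Abca1 was at 0.93, Abcc3 at 0.20 and Abcc4 at −0.28), nor did either sulfonylurea receptor. Of 13 nuclear receptors and other regulators of these genes none passed. Of 9 related carriers outside the 3 families 3 rose: the bile acid carrier Slc10a1 (1.61, adjusted p = 0.038), the lactate carrier Slc16a1 (2.24, 0.044) and the nucleoside carrier Slc29a1 (1.95, 0.0252).

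These calls depend on single arrays of both the 0 h and the 48 h group after 3 mg/kg. With 1 array of either group left out, 0 to 19 members were called. Hepatocyte markers averaged 13.16, 13.09 and 13.23 at 48 h, against 12.69, 11.67 and 12.96 at 0 h, and Kupffer cell markers 10.12, 10.22 and 10.23, against 9.64, 8.64 and 9.82. Liver endothelium markers averaged 9.42, 9.44 and 9.46 at 48 h, against 8.84, 7.54 and 9.38 at 0 h, pericyte markers 7.35, 7.30 and 7.37, against 6.89, 6.60 and 6.95, and meninges and fibroblast markers 7.83, 7.92 and 8.88, against 7.44, 6.29 and 7.37. Each of these 5 marker means was higher on all 48 h arrays than on any 0 h array. The actin gap was 3.25, 3.36 and 2.84 at 48 h, against 4.38, 3.29 and 3.88 at 0 h, with overlap. Of the 12 hepatocyte markers none passed, with 10 above 0, and of the 4 Kupffer cell markers Cd68 and Csf1r rose. Without the compressed 0 h and 4 h arrays 4 members were called, and without the compressed 0 h array alone none was. Against both 0 h groups pooled none was called either. In all 14 or 15 alternatives run for each of the 9 genes the change stayed above 0. It ranged from 1.05 to 1.63 for Abcb1a, 1.25 to 2.40 for Abcg5, 0.85 to 2.03 for Abcb4, 0.84 to 2.15 for Abce1 and 0.46 to 1.82 for Slco1a1. For Abca8a it ranged from 0.63 to 1.49, for Abcd4 from 0.63 to 1.32, for Slc22a17 from 0.66 to 1.49 and for Slc22a25 from 0.70 to 1.36. Omitting the compressed 0 h array gave 0.84 for Abce1 and 0.73 for Abca8a. The part of these marker means and of RNA quality in the changes was not tested.

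**Figure D3:**
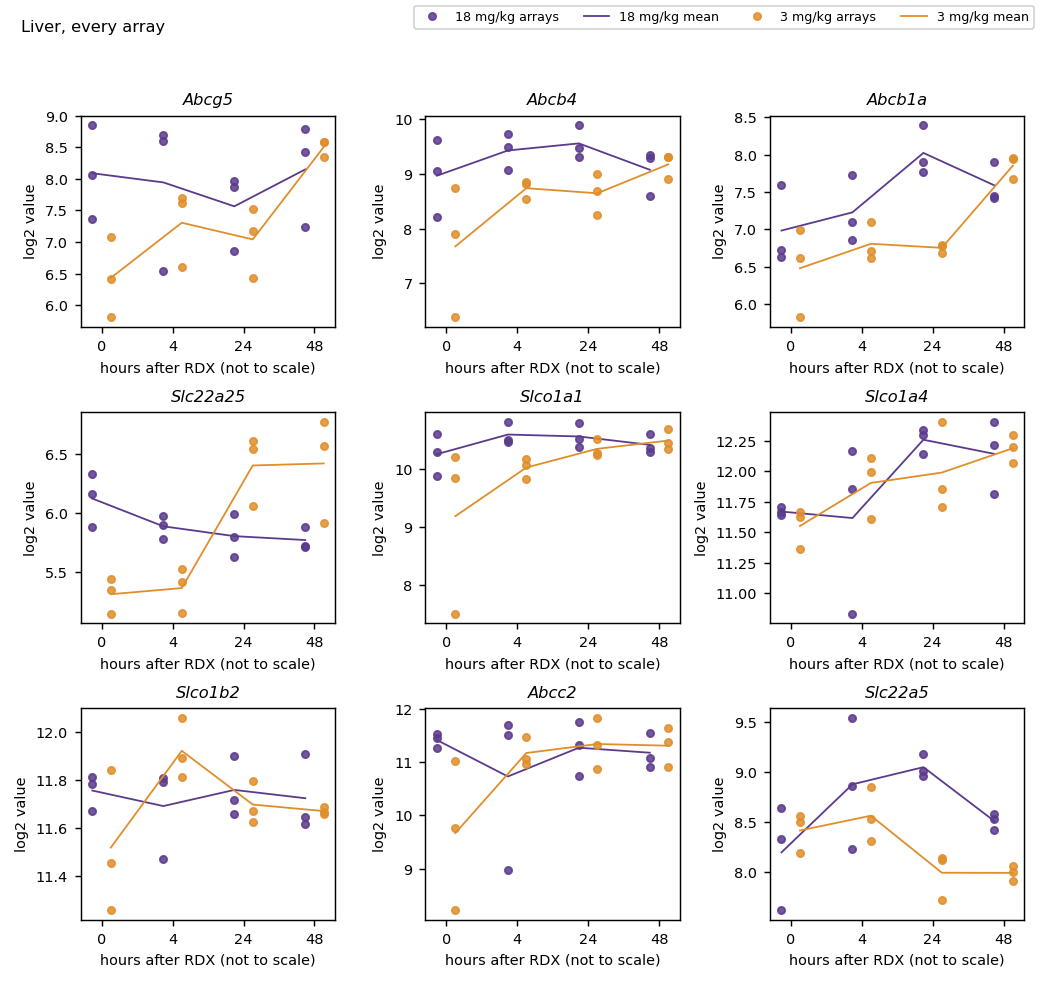
Log2 intensity of 9 transporter genes on each of the 24 liver arrays, by dose and time (points are arrays, lines join the means of 3, and times are not to scale). The lowest liver array of Abcg5, Abcb4 and Slco1a1 is a 0 h array of the 3 mg/kg group (5.81, 6.38 and 7.50).

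Probe sets of 1 gene did not always give the same value. The other Abcb1a probe set changed by 0.97 (adjusted p = 0.026) in the same comparison. Slco1a4 was represented by a probe set at 0.64 ± 0.26 (adjusted p = 0.108), while its other probe set changed by 2.61 ± 0.45 (adjusted p = 0.0231). Abca1 has 4 probe sets, which gave 0.93, 1.06, 1.01 and −1.10.

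After 18 mg/kg the same genes showed no called change in liver. Abcg5 read 8.79, 7.24 and 8.42 at 48 h, against 7.36, 8.05 and 8.85 at 0 h, and the groups overlapped. Abcb1a read 7.77, 8.40 and 7.90 at 24 h and 7.90, 7.45 and 7.42 at 48 h, against 7.60, 6.73 and 6.63 at 0 h. Its 24 h arrays lay above the 0 h arrays (1.04 ± 0.29) without passing. Slc22a25 read 5.88, 5.72 and 5.72 at 48 h, against 5.88, 6.16 and 6.33 at 0 h (−0.35 ± 0.22). No member passed at 4, 24 or 48 h after 18 mg/kg, where 0.0258%, 0% and 0.0966% of all probe sets did, or at 4 and 24 h after 3 mg/kg, where 0.0226% and 0% did. At an unadjusted p under 0.05 in limma the members numbered 8, 4 and 1 after 18 mg/kg (11.4%, 2.43% and 1.67% of all probe sets) and 9 and 15 after 3 mg/kg (14.2% and 20%).

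At 4 h after 18 mg/kg several hepatocyte genes were low on replicate 1 alone. Slc22a7 read 7.61 on it and 11.57 and 11.51 on the other arrays, and Slc22a18 read 7.75, against 11.91 and 11.87 there. The same array read 10.81 for Slco1a1 and 11.82 for Abca8a, which were not low. Its hepatocyte mean was 10.6 and its actin gap 0.617, the lowest values in liver.

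Averaged over both doses, no member passed at 4, 24 or 48 h in liver, beside 0.0934%, 0% and 0.0354% of all probe sets, and 7, 12 and 15 had an unadjusted p under 0.05 (8.92%, 12.5% and 14.5% of all). The probe set that stood for Slco1a4 separated by time in both doses. It read 12.21, 11.82 and 12.40 at 48 h after 18 mg/kg and 12.20, 12.07 and 12.30 after 3 mg/kg, against 11.66, 11.64 and 11.71 and 11.36, 11.67 and 11.63 at 0 h. All 6 arrays at 48 h exceeded all 6 at 0 h, as for 0.474% of all probe sets at 48 h in either direction, and the change of 0.55 ± 0.19 had an adjusted p of 0.268. With array weights, chosen after seeing the data, the Slco1a4 change was 0.59 (adjusted p = 0.0047). The 24 h arrays were also all above the 0 h arrays (0.51 ± 0.19, adjusted p = 0.3), as for 0.39% of all probe sets. The lowest at 24 h read 11.711 and the highest at 0 h 11.709. The other Slco1a4 probe set read 10.05, 9.08 and 9.40 at 48 h after 18 mg/kg, against 8.96, 7.66 and 9.61 at 0 h. It overlapped there, and did not overlap at 48 h after 3 mg/kg. At 48 h Slco2a1 was the other member without overlap (0.35, adjusted p = 0.419). The other Slco2a1 probe set overlapped, with an 18 mg/kg array at 6.77 at 0 h and one at 6.45 at 48 h.

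The 0 h groups of the doses were also compared in liver. No member passed (nor did any probe set, 0%), but 16 had an unadjusted p under 0.05, beside 21.4% of all probe sets, and 11 did not overlap, beside 20.1%. Abcc2 read 11.45, 11.27 and 11.53 in the 18 mg/kg group, against 9.76, 8.22 and 11.03 in the 3 mg/kg group (1.75, adjusted p = 0.125). Abcg5 averaged 8.09 in the 18 mg/kg and 6.43 in the 3 mg/kg group (1.66, adjusted p = 0.12), and Abcb11 differed by 1.62. Without the compressed 3 mg/kg array these differences were 1.02 for Abcc2, 1.35 for Abcg5 and 0.79 for Abcb11. With the time courses of the doses compared by a moderated F test no member passed in liver, beside 0.00966% of all probe sets. Of the 66 members 6 had an unadjusted p under 0.05 in it, beside 2962 of the 31042 probe sets. The smallest was Slc22a25 (adjusted p = 0.158), whose change after 18 mg/kg minus that after 3 mg/kg was −1.41 at 24 h and −1.46 at 48 h.

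In cortex no member passed in any comparison over time. After 18 mg/kg no probe set of the array passed at 4, 24 or 48 h (0%), and after 3 mg/kg 0%, 0.0741% and 0% did. Averaged over doses 0%, 0.0193% and 0% passed, and 0% passed between the doses at 0 h. At an unadjusted p under 0.05 the members numbered 4, 5 and 21 after 18 mg/kg (11%, 5.99% and 16.6% of all probe sets), 5 at each time after 3 mg/kg (12.6%, 14.4% and 13%), and 5, 6 and 6 over both doses (4.11%, 6.96% and 6.96%). Between the doses at 0 h there were 2 (4.35%).

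No carrier of the blood-brain barrier passed. Slco1c1 was at −0.18 at 4 h, 0.02 at 24 h and 0.10 at 48 h over both doses (SE 0.129), and Slco1a4 at −0.34, −0.14 and 0.10 (SE 0.127). Slco2b1 was at 0.02, 0.00 and 0.16, and Abcc4 at 0.19, −0.03 and −0.03. Abcg2, the capillary drug pump, was at 7.84, 7.54 and 7.91 at 4 h after 18 mg/kg and 7.61, 7.22 and 7.34 after 3 mg/kg, against 7.19, 7.34 and 6.65 and 6.36, 6.55 and 7.49 at 0 h. The groups overlapped in part, and the change over both doses was 0.65 ± 0.20 (adjusted p = 0.985).

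Abcb1a, the P-glycoprotein of capillary endothelium, had the widest range of group means among the members in cortex, 2.07. After 18 mg/kg it read 8.18, 7.97 and 8.29 at 4 h, 7.11, 8.29 and 6.55 at 24 h and 8.23, 8.13 and 8.84 at 48 h, against 7.20, 6.23 and 7.25 at 0 h. After 3 mg/kg it read 5.82, 7.01 and 6.16 at 24 h and 6.90, 6.91 and 6.81 at 48 h, against 7.17, 7.67 and 7.68 at 0 h. So at 48 h all arrays were above 0 h after 18 mg/kg (1.51 ± 0.38, adjusted p = 0.1) and all below after 3 mg/kg (−0.63 ± 0.38, adjusted p = 0.456). The changes of the other Abcb1a probe set were −0.23 to 0.21 over the 6 time groups. The actin gap was 4.61, 2.95 and 4.39 at 48 h after 18 mg/kg, against 2.48, 1.86 and 3.60 at 0 h, and with it as a covariate the Abcb1a change was 1.26 (adjusted p = 0.319). After 3 mg/kg the gap was 2.11, 2.19 and 2.73 at 48 h, against 3.18, 3.60 and 1.88 at 0 h, with overlap. The part of RNA quality in the opposite movements was not tested. Without 18 mg/kg 0 h replicate 3 the Abcb1a change after 18 mg/kg passed in limma (adjusted p = 0.0497), and also without 48 h replicate 2 (0.0283). The first has the widest actin gap of its group (3.60) and the second the narrowest of its group (2.95). Each omission therefore left the gaps at 0 h and 48 h further apart. In the F test of the dose difference Abcb1a had the smallest p of the members (adjusted p = 0.186). No member passed it, while 0.00322% of all probe sets did. Of the 66 members 10 had an unadjusted p under 0.05 in it, beside 5175 of the 31042 probe sets.

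Slc22a3, a carrier of monoamines and other organic cations, was above 0 h at each time. It read 6.85, 7.33 and 7.07 at 48 h after 18 mg/kg and 6.87, 6.79 and 6.73 after 3 mg/kg, against 6.45, 6.62 and 6.63 and 6.23, 6.65 and 6.42 at 0 h. The 6 arrays at 48 h and the 6 at 4 h lay above all 6 at 0 h, as for 0.374% and 0.222% of all probe sets in either direction. The changes over both doses were 0.27 at 4 h, 0.31 at 24 h and 0.44 ± 0.085 at 48 h, with limma adjusted p of 0.985, 0.249 and 0.19. Among lipid transporters, Abca1 was at 1.03 24 h after 3 mg/kg (adjusted p = 0.186) and Abca2 at −0.48 48 h after 18 mg/kg (0.153). The nucleotide exporter Abcc5 was at −0.69 there (0.179), Slco3a1 at −0.44 and Slc22a17 at −0.18.

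**Figure D4:**
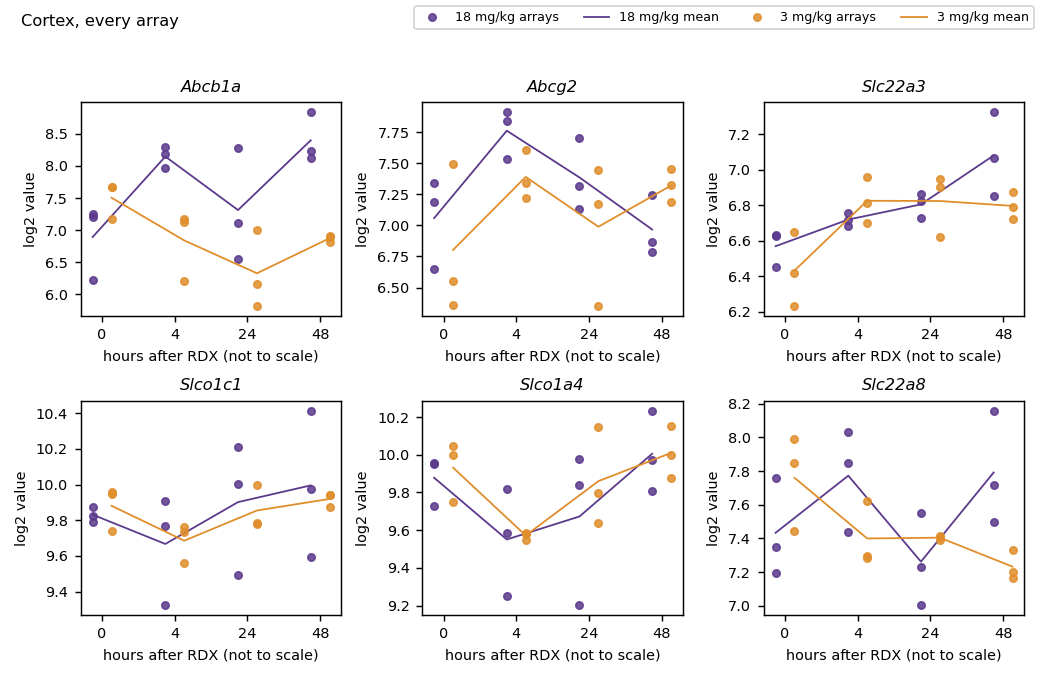
Log2 intensity of 6 barrier and cation transporters on each of the 24 cortex arrays, by dose and time (points are arrays, lines join the means of 3, and times are not to scale). Abcb1a spans 5.82 to 8.84, while Slco1c1 stays between 9.33 and 10.41.

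Transporters known from hepatocytes were high on the cortex arrays where hepatocyte markers were high. The marker mean was above 8 on 4 arrays: 9.63 on 3 mg/kg 4 h replicate 1, 9.46 on 18 mg/kg 4 h replicate 2, and 10.04 and 10.48 on 18 mg/kg 48 h replicates 2 and 3. On these 4 arrays 7 members lay above all other 20, as did 1.06% of all probe sets: Slco1b2, Abcb11, Abcc2, Abcc6, Slc22a18, Slc22a7 and Slco1a1. Slco1b2 read 6.92 to 7.43 there and 4.17 to 5.48 elsewhere, Abcb11 5.58 to 6.58 and 3.86 to 4.44, and Abcc2 5.97 to 6.84 and 4.78 to 5.62. All 12 hepatocyte markers were above 0 in cortex 48 h after 18 mg/kg, with a median change of 2.87, none of them past the threshold. The changes of Slco1b2 (1.73, adjusted p = 0.245), Abcb11 (1.40) and Abcc2 (1.0) stand beside a replicate 1 whose marker mean was 5.23 and on which they read 4.53, 4.32 and 5.25, within the range of the 0 h arrays. Where the hepatocyte signal came from was not tested. The 10 arrays with an actin gap above 3 had higher Abca7 (8.23 to 8.81, against 7.40 to 8.03) and Abcc1 (7.20 to 8.36, against 6.06 to 7.16) than all other 14, as did 2.84% of all probe sets.

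**Figure D5:**
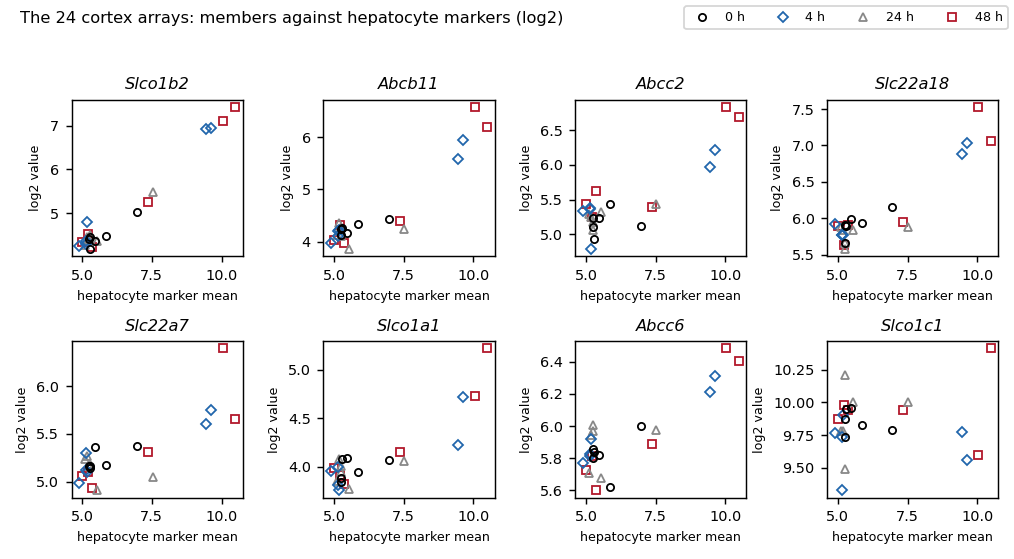
Log2 intensity of 8 transporter genes on the 24 cortex arrays against the mean of 12 hepatocyte markers on the same array (log2 intensity). Slco1b2 lies at 6.92 or above on the 4 arrays whose marker mean exceeds 8 and at 5.48 or below on the others, while Slco1c1, a brain capillary gene, shows no such split.

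Whether liver and cortex differed in their time courses was tested over all 48 arrays. No member passed the F test, beside 0.103% of all probe sets. Of the 66 members 12 had an unadjusted p under 0.05 in it, beside 2353 of the 31042 probe sets. The smallest adjusted p was that of Slc22a25 (0.435), with liver minus cortex changes over both doses of −0.06 at 4 h, 0.37 at 24 h and 0.39 at 48 h.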

How the data were processed

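RNA of 48 arrays (2 tissues, 2 doses, 4 times, 3 arrays each) was measured on Affymetrix rat genome arrays. The deposited values are log2 intensities per probe set, which the authors made with RMA and Partek, per the submitters' processing notes; versions are not given in the sources used here. Arrays carry no molecule counts, so the number of arrays limits precision. Of 31099 probe sets, 57 controls were left out. The platform annotation gave 1 symbol for 20826 probe sets, several for 436 and none for 9780; 2 probe sets that share transporter symbols were left out. Groups came from the labels.

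limma 3.58.1 in R 4.3.3 was fitted per tissue with 8 group means (24 arrays) and, for tissue comparisons, to all 48 arrays, with Benjamini-Hochberg adjustment over 31042 probe sets and a threshold of 0.05. It was tested on simulated data. Tables and figures used Python 3.11.15, pandas 2.3.3 and matplotlib 3.10.9. Members, role lists and tests were chosen with earlier results of these data known. Genes were named if they were among the 10 largest called changes in a direction, on a fixed list for the tissue, or had the smallest p of a role list; others were named after their values were seen. Alternatives were quantile normalisation, median centring, brighter probe sets, 1 probe set per gene, a variance trend, the replicate block, pooled 0 h groups, omitted arrays, covariates in cortex and, added after seeing the data, array weights in liver and a stricter limit on hepatocyte markers in cortex.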

Additional observations from a re-analysis of the deposited data

Results flagged for a closer look

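For 3 transporters, every array of a time group lay above 0 h after 1 dose and every array lay below 0 h after the other. Slc22a5 in liver at 24 h read 9.01, 8.96 and 9.18 after 18 mg/kg, against 8.33, 8.64 and 7.62 at 0 h, and 8.12, 8.14 and 7.72 after 3 mg/kg, against 8.19, 8.50 and 8.56 at 0 h, a difference between the changes of 1.27. Slc22a25 in liver at 48 h had a difference of −1.46, and Abcb1a in cortex at 48 h one of 2.14. For Abcb1a the other probe set and the actin gap of these arrays are given above. For Slc22a25 after 18 mg/kg the highest 48 h array and the lowest 0 h array both read 5.878, so their separation is below the rounding. Opposite movements of this kind occurred for 0.705% of all probe sets in liver at 24 h, 2.32% in liver at 48 h and 2.13% in cortex at 48 h. The differences at single times were not tested. Over all times together, limma's F test of the dose difference gave adjusted p-values of 0.515 for Slc22a5, 0.158 for Slc22a25 and 0.186 for Abcb1a.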

How the results depend on the processing

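The liver against cortex count at 0 h was 51 to 58 members in every alternative but the brighter probe sets, where 39 of 45 members passed. In liver 48 h after 3 mg/kg, 9 members were called: 5 after another quantile normalisation (4 higher and 1, Slc22a5, lower, 80% higher against 100%), 4 without the 2 compressed arrays, 0 against pooled 0 h groups and 0 to 19 with 1 array left out (0 h replicates 1, 2 and 3 gave 5, 0 and 19, and those of 48 h gave 0, 1 and 0). Centring each array moved the median of all probe sets there from −0.16 to 0.01. With array weights, chosen after seeing the data, it was 25 (76% higher), and the liver counts that were 0 became 11 and 19 (3 mg/kg at 4 and 24 h), 2 and 1 (18 mg/kg at 4 and 48 h), 10, 10 and 13 (both doses at 4, 24 and 48 h), 19 (between doses at 0 h) and 14 (dose difference). With 1 array left out, they became 0 to 5 and 0 to 11 (3 mg/kg at 4 and 24 h), 0 to 1, 0 to 5 and 0 to 5 (both doses), 0 to 14 (0 h), 0 to 1 (dose difference) and 0 to 1 (liver against cortex over time). The highest of these were without 3 mg/kg 0 h replicate 3. In cortex, counts of 0 became 0 to 1 (24 h after 3 mg/kg), 0 to 8 (48 h after 18 mg/kg) and 0 to 3 (dose difference); 8 and 3 were without 18 mg/kg 48 h replicate 2, and the 48 h count was 7 without replicate 1 and 4 without 0 h replicate 3. With only cortex arrays whose hepatocyte mean was at most 6, also chosen after seeing the data, they became 1, 2 and 3 (18 mg/kg at 4, 24 and 48 h) and 6 (dose difference). The share of all probe sets called is not given for these fits or for the replicate block below. Their counts therefore do not show a change particular to the transporters. The cause was not tested.

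With the replicate number as a block, 11 members were called in liver 48 h after 3 mg/kg. Correlations of the deviations from the group means were computed between same-numbered arrays, and they had both signs. Between groups of a tissue the correlations ran from −0.707 to 0.61. Between liver and cortex of the same dose and time they ran from −0.102 to 0.204, and the numbers were not taken as pairs.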

Other observations

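The 2 probe sets that the annotation shares between transporter genes were read but enter no comparison. The one shared by Abcb1a and Abcb1b had group means of 4.95 to 5.76 in liver and 5.82 to 6.08 in cortex. The one shared by Abcg3l4 and Abcg3l2, relatives of Abcg2 known from rodents, read 11.2, 11.3 and 11.2 in the 18 mg/kg and 10.7, 10.6 and 11.4 in the 3 mg/kg liver arrays at 0 h, against 6.69, 6.64 and 6.47 and 6.34, 6.69 and 6.41 in the matching cortex arrays. It read 8.35 on the compressed liver array 4 h after 18 mg/kg, and 7.45 and 7.07 on the cortex arrays with the highest hepatocyte signal.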
